A study of Gallus gallus with 8 samples.

Results

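Open regions with low signal in the developing retinal pigment epithelium (RPE) that gained accessibility after retinectomy with FGF2 at both embryonic stages were examined. They are called the opened regions here. They numbered 1108 of 89824 open regions in all, and of 83389 regions that lay on chromosomes 1 to 28 and were at most 5000 bp wide. The opened regions were selected on the measured values themselves. The log2 ratio of treated to developing group means, with 1 added to each mean, had to be at least 1.5 at embryonic day 4 (E4) and at embryonic day 5 (E5), and the means of E4 and E5 had to differ by less than 1 on the log2 scale within developing and within treated RPE. The mean over the 4 developing libraries had to be under 50 normalized counts and the mean over the 4 treated libraries at least 100. Folds, levels and calls of the opened regions in these contrasts therefore describe the choice and are not findings.

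The study asked how chromatin differs between RPE that can be reprogrammed to neural retina and RPE that has lost this ability. ATAC-seq, in which the Tn5 transposase cuts and tags accessible DNA, was applied to RPE nuclei of chicken embryos in 4 groups of 2 libraries, each library made from pooled RPE of 2 embryos. The groups were developing RPE at E4 (Hamburger-Hamilton stage 24) and at E5 (stage 26), and RPE of the same starting stages collected 6 hours after retinectomy, the removal of the neural retina, with a heparin bead soaked in FGF2 placed in the eye cup (6hPR+FGF2). Eggs were White Leghorn per the labels but of a SPAFAS pathogen-free flock per the study's methods, with no transgene or mutation named. The tissue label was not checked here against marker genes, since the table lists regions and not genes. Coordinates are those of the GRCg6a assembly as deposited. No library of retinectomy without FGF2 was used here, so that surgery, FGF2 and the 6 hours of further development cannot be told apart, and all treated libraries differ from all developing libraries in all of them.

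The RPE is a pigmented monolayer that supports the photoreceptors. In the chick embryo, young RPE exposed to FGF2 after loss of the retina can lose pigment and form a neuroepithelium, through receptor tyrosine kinase and MAP kinase signalling. Regulatory DNA such as enhancers and promoters becomes accessible to Tn5 when transcription factors displace nucleosomes, and an increase in ATAC-seq reads at a site reflects either more cells in which the site is open or a more open site in each cell. These possibilities cannot be told apart in bulk libraries.

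The word closed did not describe these regions exactly, since every one had reads in 3 of the 4 developing libraries and all but 3 had reads in the remaining one. In developing RPE, the median normalized count per opened region was 25.5 in E4 replicate 1, 33.4 in E4 replicate 2, 30.4 in E5 replicate 1 and 30.0 in E5 replicate 2. After 6hPR+FGF2 the medians were 108 and 180 in E4 replicates 1 and 2, and 154 and 196 in E5 replicates 1 and 2. E4 RPE replicate 1 was the lowest of the developing libraries and E4 6hPR+FGF2 replicate 1 the lowest of the treated ones, and no treated median overlapped a developing median. The opened regions held 0.0602% to 0.0784% of the signal of a developing library and 0.299% to 0.497% of a treated one. Over all 83389 eligible regions the library medians lay between 156 and 170 with no such step. The depth was 25233633 to 72884966 reads within open regions per library. The median opened region had 18 to 43 reads in a developing library and 84 to 236 in a treated one. E4 RPE replicate 1 was the shallowest at these sites, with 3 opened regions at 0 reads and 183 under 10 reads, against at most 11 under 10 reads in any other developing library and none in a treated library.

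**Figure D1:**
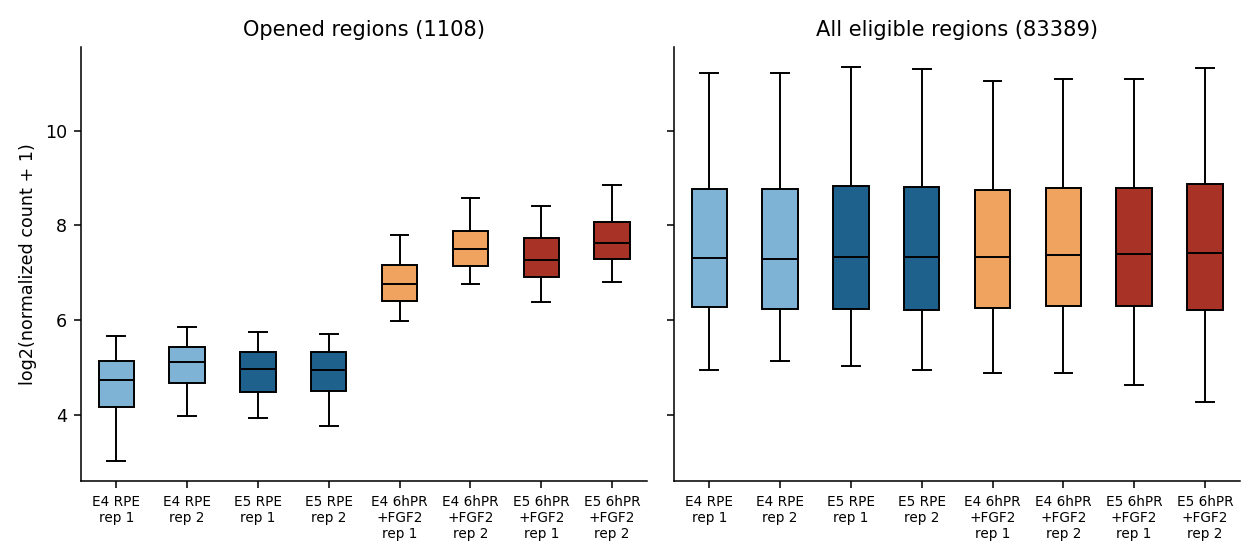
Normalized counts per region in each of the 8 libraries, on the axis log2(normalized count + 1), for the opened regions (left) and all eligible regions (right). Boxes span the quartiles, lines mark medians and whiskers the 5th to 95th percentile of regions. Among opened regions the median ran from 25.5 to 33.4 counts in developing libraries and from 108 to 196 in treated libraries, whereas the medians over all eligible regions lay between 156 and 170.

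The opened regions were narrower than the eligible regions as a whole. Their median width was 310 bp (quartiles 250 and 400, range 200 to 1010), and 76.4% were 200 to 400 bp wide. The median was 530 bp over eligible regions. A further 775 regions met all the same limits except that their developing mean was 50 or more, and these already open regions had a median width of 600 bp. The 7877 other eligible regions with a developing mean under 50 were narrower still, with a median width of 230 bp. Counts grow with width and the limits were set on counts, and the part of the limits in these widths was not tested. Per kb, the opened regions went from a median of 90.6 normalized counts in developing RPE to 520 after treatment. Among eligible regions only 2.31% had a lower level per kb than the first value, and 73.9% a lower level than the second. The already open regions went from 153 to 676 per kb. Per kb, the median treated level of the opened regions passed the median of eligible regions, 335, without reaching that of the already open regions. In counts not divided by width it did not pass: the median was 159 in opened regions and 167 in eligible regions. Of the eligible regions 48.3% had a treated mean under the former. The rule had required a treated mean of at least 100 counts, so that these levels describe the choice.

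**Figure D2:**
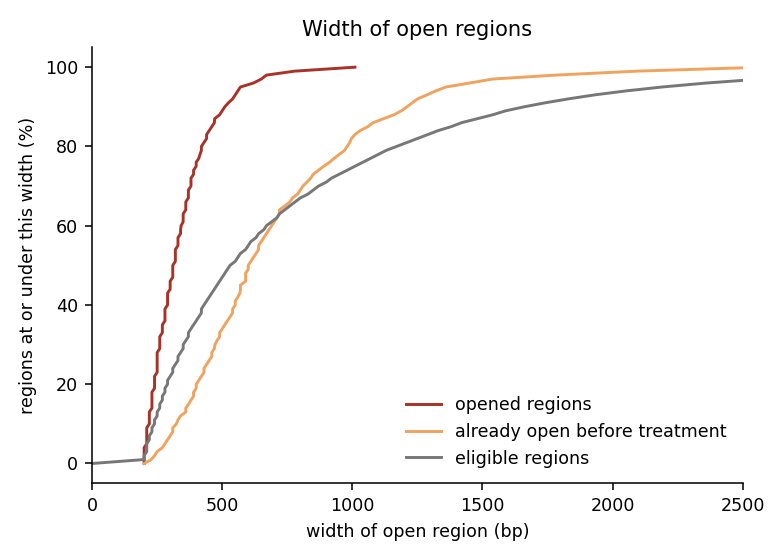
Cumulative share of regions (%) by width (bp) for the 1108 opened regions, the 775 regions already open before treatment and all 83389 eligible regions, with the widest regions beyond the axis. The curve of the opened regions lies to the left, with a median of 310 bp against 600 and 530 bp.

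The size of the gain was spread over a wide range. By limma on log2(normalized count + 1), a scale that understates changes of low regions, the median log2 difference was 2.28 at E4 (range 1.39 to 5.12) and 2.56 at E5 (range 1.13 to 5.44), with a median over all regions of -0.03 and -0.04. The smaller of the E4 and E5 log2 ratios of group means lay between 1.5 and 2 in 414 opened regions. It lay between 2 and 3 in 569, between 3 and 4 in 108, and was at least 4 in 17. The 11 opened regions with a treated mean of at least 500 counts had median log2 ratios of 3.85 at E4 and 4.43 at E5. The 488 with 100 to 150 counts had 2.07 and 2.29. The rule ties these ratios to the treated level, since it holds the developing mean under 50. All treated libraries lay above all developing libraries in 1105 of the 1108, as they did in 18.4% of all regions. Calls at an adjusted p of at most 0.05 were made as higher for 1099 opened regions at E4 (10.4% of all regions), for 1106 at E5 (18.2%) and for 1099 at both (8.9%). No opened region was called lower, a call made for 9.53% of all regions at E4 and 19.3% at E5. These counts follow from the rule. The E4 count depended on E4 6hPR+FGF2 replicate 2. Without that library, which left 1 library in its group, fewer opened regions were called higher at E4. The share of all regions called higher at E4 fell as well. The median log2 difference at E4 was then 1.93 in the opened regions, against -0.01 over all regions.

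**Figure D3:**
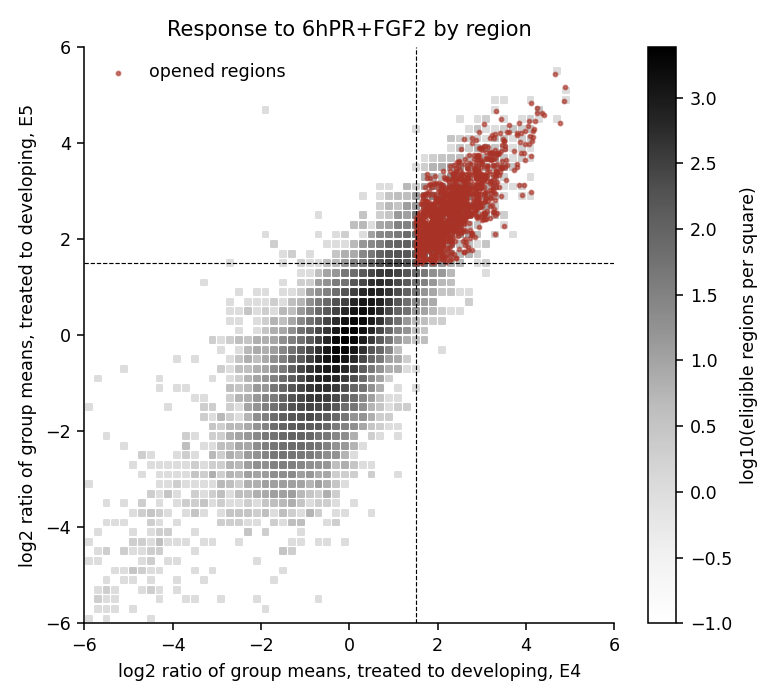
Log2 ratio of treated to developing group means at E4 (horizontal) and E5 (vertical). Grey squares count eligible regions on a log10 scale and red points are the 1108 opened regions; dashed lines mark the limits of 1.5, ratios beyond 6 in size are not drawn, and the median opened region had ratios of 2.29 and 2.57.

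The rule was also applied to single libraries of each group, as a description of how the choice depends on them. Replicates 1 alone gave 586 regions, whose median log2 ratios in replicates 2 were 2.48 at E4 and 2.78 at E5. Replicates 2 alone gave 1277 regions, whose median ratios in replicates 1 were 1.94 and 2.29. This is no independent check, because the authors merged the open regions called in all libraries into 1 list, and a site low in developing RPE could enter that list through any treated library.

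Replicates of the treated groups differed at most opened regions. E4 6hPR+FGF2 replicate 1 was below replicate 2 in 1076 of 1108 (97.1%), compared with 56.9% of eligible regions, and it was the lowest of the 4 treated libraries in 921 (83.1%), compared with 32.3%. At E5, replicate 2 was above replicate 1 in 902 (81.4%), compared with 55.1% of eligible regions. The median log2 difference over the mean of the developing libraries of the same stage was 1.93 in E4 replicate 1, 2.64 in E4 replicate 2, 2.37 in E5 replicate 1 and 2.77 in E5 replicate 2. The same E4 library was also below its partner in 94.3% of the 775 already open regions. On the log2 scale the replicates of the E4 treated group had a median SD of 0.54 at opened regions, against 0.17 over eligible regions. The rule gave 1394 regions without E4 6hPR+FGF2 replicate 1 and 603 without replicate 2. What sets the former library apart was not tested.

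The response at E5 was not shown to differ from that at E4. The log2 difference was larger at E5 in 799 of 1108 opened regions (72.1%), with a median of 0.26 for E5 minus E4. The already open regions leaned the same way, with 611 of 775 (78.8%) larger at E5 and a median of 0.24. Over all regions 49.4% were larger at E5, with a median of -0.01. In the opened regions this direction depended on E4 6hPR+FGF2 replicate 1. Without it the median was -0.10 and 462 were larger at E5, and without E4 6hPR+FGF2 replicate 2 it was 0.63. No opened region passed the limma test of the interaction of stage and treatment (0.00223% of all regions did), 28 (2.53%, against 9.21% of all regions) had an unadjusted p under 0.05, all larger at E5, and edgeR and DESeq2 also made 0 calls. Between E4 and E5 none was called by limma within developing RPE (4.16% of all regions) or within 6hPR+FGF2 RPE (4.6%), with 29 (2.62%, against 21.3% of all regions) and 86 (7.76%, against 24.0%) at an unadjusted p under 0.05. In the stage comparisons edgeR and DESeq2 each made 1 call. The shares of all regions called by edgeR and DESeq2 are not given here, so that their counts cannot be read as few or many. Some opened regions were also called in the stage comparisons without E4 RPE replicate 2 or without E4 6hPR+FGF2 replicate 2. Either omission left 1 library in a group. The rule itself bounds these stage changes.

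The opened regions with the highest folds are given with each library's value. On chromosome 2, the region from 5151970 to 5152640 had 5.66 and 26.1 counts in E4 RPE and 28.3 and 29.2 in E5 RPE, and 344, 629, 755 and 1009 in E4 and E5 6hPR+FGF2, for log2 differences of 5.12 ± 0.55 (SE) at E4 and 4.88 ± 0.55 at E5. All treated values lay far above all developing values. On chromosome 14, the region from 6267970 to 6268390 had 8.49 and 19.6 counts at E4 and 12.7 and 17.5 at E5 before treatment, and 235, 516, 575 and 825 after it, and its E5 difference of 5.44 ± 0.46 was the highest of the opened regions. The region with the lowest developing mean, on chromosome 1 from 60593030 to 60593240, held 2.83, 8.97, 8.49 and 5.00 counts in the developing libraries, as few as 2 reads in E4 replicate 1, and 112, 294, 266 and 289 in the treated ones. In all 3 regions E4 6hPR+FGF2 replicate 1 was the lowest treated library.

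The highest treated signal stood on chromosome 5 from 23944630 to 23945160, with a mean of 749 counts. Its developing libraries read 19.8, 54.6, 25.5 and 30.0 and its treated libraries 487, 968, 779 and 761. E4 6hPR+FGF2 replicate 2 was the highest there, and the groups did not overlap. The next highest was on chromosome 20 from 7999280 to 7999980, with developing values of 42.4, 45.7, 46.7 and 57.5 and treated values of 367, 653, 750 and 1009. The developing values of this region differed little between libraries, and all lay near the limit of 50. The region on chromosome 2 that began at 5151970, given above, followed with a treated mean of 684. Next came chromosome 13 from 15144290 to 15144710 and chromosome 2 from 12150760 to 12151230, with treated means of 647 and 639. None of these regions lay in the stretches for which gene names were at hand.

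The opened regions with the largest stage differences in the log2 ratios of group means are given next, with the differences by limma. None passed the interaction test, but that test made only 2 calls in all 89824 regions and the rule bounds these differences. The region on chromosome 4 from 876360 to 876710 rose by 1.79 ± 0.43 at E4, with 18.4 and 37.5 counts before and 71.1 and 122 after treatment. At E5 it rose by 3.33 ± 0.43, with 16.3 and 17.5 before and 149 and 214 after. The difference was 1.54 ± 0.61. By limma the largest difference was that on chromosome 2 from 39706560 to 39706780, at 1.55 ± 0.59. The difference in the opposite direction was greatest in an intron of DENND6B, a gene whose product activates Rab GTPases in membrane trafficking, on chromosome 1 from 1123880 to 1124160. It had 5.66 and 31.8 counts before and 163 and 282 after treatment at E4, and 36.1 and 30.0 before and 103 and 223 after at E5. The difference was -1.69 ± 0.94, the lowest developing library held 4 reads, and treated and developing values did not overlap at either stage.

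At 3 opened regions single libraries overlapped. On chromosome 10 from 11476240 to 11476470, E5 6hPR+FGF2 replicate 1 read 38.6, under the highest developing value of 53.3, and replicate 2 read 219. On chromosome 25 from 1421160 to 1421380, E4 RPE replicate 1 read 69.3 and E5 6hPR+FGF2 replicate 2 read 57.7. On chromosome 6 from 27037590 to 27037820, E4 6hPR+FGF2 replicate 1 read 44.9 against a highest developing value of 47.5. In each case a single treated library fell below the highest developing one. At the limits of the rule, the developing means nearest to 50 were 49.73 inside it and 50.03 outside, and the treated means nearest to 100 were 100.1 inside and 99.98 outside. The log2 ratios nearest to 1.5 were 1.501 inside and 1.499 outside at E4, and 1.504 and 1.495 at E5. The stage changes nearest to 1 were 0.9989 inside and 1.015 outside in developing RPE, and 0.9998 and 1.004 after treatment. The limit on the developing mean was the only one failed by 775 regions, that on the E4 ratio by 274, the treated mean by 268, the stage change after treatment by 110, the E5 ratio by 69 and the stage change in developing RPE by 30. Values continued across each limit without a gap.

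Gene names come from the study's annotation, which was at hand for stretches of chromosome 1 alone. It covered 49 opened regions, 33 by the list of open regions and 16, those at RUNX1, ERG, PDE9A and gga-mir-221 among them, by a summit in the list of peak summits. The paper describes a supplementary list of summits as those with an OTX2 motif and significantly changed accessibility. Whether the list used here was chosen in that way was not checked, so that names and features may reflect such a choice. The nearest gene had a name for 29. They are names only, and no pathway was tested. Of the 49, 22 lay in introns, 18 between genes, 7 at promoters, and 1 each in an exon and at a transcription end. Semaphorins and plexins, ligands and receptors best known for guiding axons and cell movement, were among the names. They were picked after the values were seen and stand for no tested group. An intron of SEMA3D, a secreted semaphorin, held an opened region from 8928200 to 8928450, with 12.7, 13.0, 24.0 and 15.8 counts in developing libraries and 114, 166, 182 and 260 in treated ones, a log2 difference of 3.32 ± 0.37 at E4 and 3.41 ± 0.37 at E5. Its groups were far apart. The SEMA3D promoter, from 8877310 to 8877590, was lower, at 25.5, 28.5, 55.9 and 40.8 before and 59.3, 135, 178 and 210 after treatment (1.70 ± 0.40 and 1.99 ± 0.40), and E4 6hPR+FGF2 replicate 1 came close to the highest developing value. An intergenic region nearest SEMA3A, a repulsive guidance cue, from 9206880 to 9207370, had 9.90, 31.0, 28.3 and 24.2 counts before and 148, 282, 228 and 416 after treatment. The intron of the plexin receptor gene PLXNA4, from 2919570 to 2919850, had 49.5, 20.4, 18.4 and 28.3 before and 217, 324, 287 and 365 after treatment, for 3.02 ± 0.42 and 3.77 ± 0.42. The intron of another plexin gene, PLXNB2, from 20756650 to 20756930, had smaller differences, 1.66 ± 0.32 and 1.85 ± 0.32, with 32.5, 40.8, 52.3 and 43.3 counts before and 93.9, 146, 163 and 187 after treatment. At PLXNA4 the highest developing value came from E4 replicate 1. That library was the lowest of the developing ones in 561 of the 1108 (50.6%), compared with 35.4% of eligible regions.

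Other open regions in the stretch from SEMA3D to SEMA3A moved in both directions. Those around PLXNA4 and PLXNB2 were not counted. In the 330.1 kb from the SEMA3D promoter to the region nearest SEMA3A lay 28 open regions, of which 3 were opened regions. Of the 25 others, 1 was called higher and 6 lower at E4, against 10.4% and 9.53% of all regions. At E5, 4 were called higher and 5 lower, against 18.2% and 19.3% of all regions. Most were called in neither direction.

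A pair of opened regions lay at RUNX1, a Runt-domain transcription factor known for its role in blood formation, also picked after the values were seen. Its promoter region from 107507200 to 107507440 had 33.9, 29.4, 33.2 and 25.8 counts in developing libraries and 107, 148, 149 and 161 in treated ones (1.96 ± 0.32 at E4 and 2.36 ± 0.32 at E5). Its intron from 107370280 to 107370650 went from 29.7, 53.8, 58.7 and 54.2 to 159, 259, 215 and 228. Treated and developing values did not overlap at either region. Of 17 other open regions within 25000 bp of or between them, 3 were called higher at E4 and 4 at E5, and 1 lower at each stage. Over all regions, 10.4% at E4 and 18.2% at E5 were called higher, and 9.53% and 19.3% lower. Cell type markers could not be read from this table of regions, so the part of any blood cells in these values was not tested. Nearest the gene ERG, an ETS-family transcription factor, lay the region from 109026350 to 109026600, also picked after the values were seen. It had 28.3, 20.4, 22.6 and 31.7 counts before and 66.9, 88.5, 107 and 167 after treatment. E5 6hPR+FGF2 replicate 2 was the highest, and the groups did not overlap.

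Other named opened regions lay beside genes of varied function. PDE9A, a phosphodiesterase that breaks down cyclic GMP, had the highest treated mean of those named, 387 counts, in an intron from 110829400 to 110829900, with 35.4, 59.5, 38.9 and 45.0 before and 277, 443, 331 and 498 after treatment. MicroRNA genes were the nearest to 3 opened regions. At gga-mir-221 (111991360 to 111991750) there were 14.1 to 21.7 counts before and 95.9 to 152 after treatment. At gga-mir-29a (4043470 to 4043930) the E5 treated libraries differed, with 64.3 and 211. At gga-mir-6708, picked after the values were seen (523510 to 523810), the log2 difference was 2.14 ± 0.41 at E4 and 3.27 ± 0.41 at E5. A region in an intron of CACNA2D1, a calcium channel subunit gene, from 10461710 to 10461950, had no named nearest gene and was picked after the values were seen. It went from 19.8, 17.1, 12.02 and 21.7 counts to 108, 195, 261 and 272, for 2.91 ± 0.40 at E4 and 3.96 ± 0.40 at E5. An intron of MAPK11, a p38 MAP kinase picked after the values were seen, from 20584840 to 20585070, had 24.0 to 46.7 counts in developing libraries and 130 to 243 in treated ones. Regions at introns of SLC2A13, a myo-inositol transporter, and SLC26A5, the motor protein prestin of outer hair cells, and an exon of FAM107B gave treated means of 134, 171 and 157.

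**Figure D4:**
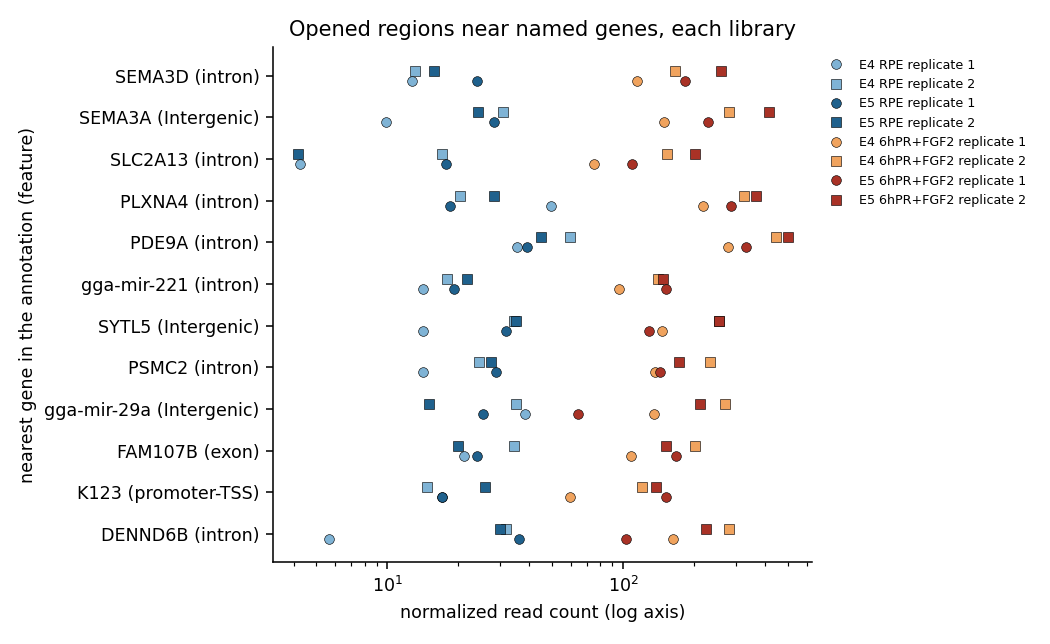
Normalized count per library (log axis) of the 12 opened regions with the highest folds among those whose nearest gene in the study's annotation has a name, with circles for replicate 1 and squares for replicate 2. Blue points are developing RPE and orange or red points 6hPR+FGF2 RPE; the PDE9A region has the highest treated mean, 387 counts.

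The opened regions were spread over the genome. They lay on all chromosomes from 1 to 28, and between 0.877% (chromosome 16, 1 region) and 2.11% (chromosome 23, 21 regions) of the eligible regions of a chromosome were among them. Chromosome 1 held 19.7% of opened regions and 16.0% of eligible ones. Of the 1108, 960 had no other opened region within 25000 bp, and the median distance to the next was 171640 bp. The remaining 148 formed 57 runs of 2, 8 of 3, 1 of 4 and 1 of 6. The run of 6 covered 56990 bp on chromosome 13 from 15978690 to 16035680 and held 5 other open regions. Of these, 1 was called higher at each stage, a call made for 10.4% of all regions at E4 and 18.2% at E5. The first opened region of the run, from 15978690 to 15979150, had 26.9, 33.4, 17.0 and 18.3 counts before and 184, 288, 277 and 428 after treatment (2.90 ± 0.34 at E4 and 4.21 ± 0.34 at E5). The other 5 opened regions of the run had treated means of 124 to 242. The run of 4 lay on chromosome 9 from 19898800 to 19921880, with treated means of 102 to 256 and 1 other open region between them. That region was called higher at both stages, as were 8.9% of all regions.

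Open regions next to the opened ones, which the rule did not take, changed in both directions. Of the 1964 nearest other regions on either side within 25000 bp, 292 (14.9%) were called higher at E4 and 483 (24.6%) at E5, against 10.4% and 18.2% of all regions. They were called lower in 7.13% and 14.8%, against 9.53% and 19.3%. Their median log2 difference was 0.10 at E4 and 0.12 at E5, and most were called in neither direction. Shares by distance were taken over all other regions on chromosomes that held an opened region, and not over the nearest alone. Within 1 kb the share called higher was 21.8% at E4 and 29.9% at E5 (294 regions), and beyond 100 kb it was 8.11% and 15.9% (61465 regions). The counts of the nearest regions within 25000 bp depended on single libraries. Omission of E4 RPE replicate 1 gave 184 at E4 (9.37%, against 6.92% of all regions), that of its partner replicate 2 gave 182 (9.27%, against 5.81%), and that of E4 6hPR+FGF2 replicate 2 gave 94 (4.79%, against 3.01%). At E5, omission of developing replicate 1 gave 279 (14.2%, against 10.2%) and that of developing replicate 2 gave 292 (14.9%, against 11.5%). In each case the neighbours' share exceeded that of all regions. No test of this difference was made, since neighbouring regions are not independent.

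**Figure D5:**
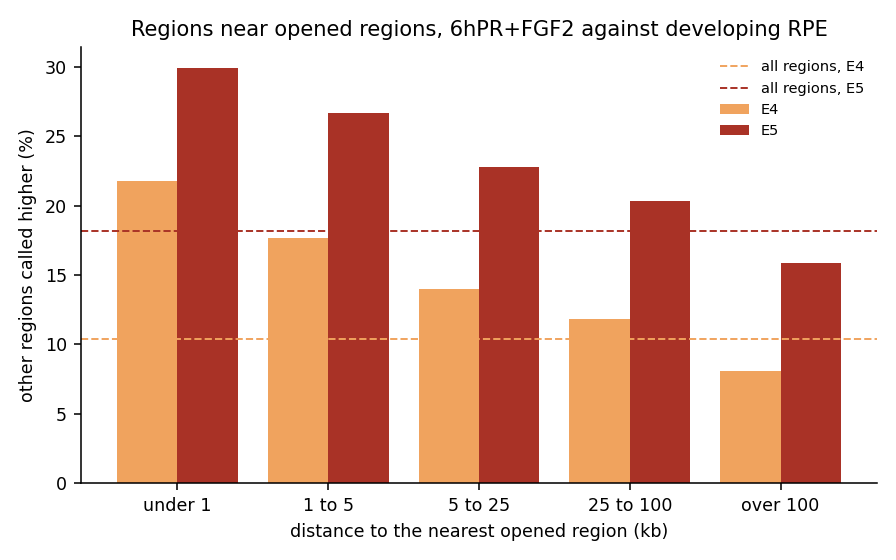
Share of other open regions called higher after 6hPR+FGF2 (%) by distance to the nearest opened region (kb), at E4 and E5. Regions on chromosomes without an opened region are left out of the bars, and dashed lines give the share over all regions. The bars fall from 21.8% and 29.9% within 1 kb to 8.11% and 15.9% beyond 100 kb, and the dashed lines stand at 10.4% and 18.2%.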

How the data were processed

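The deposited values are a signal, normalized read counts per open region in 8 ATAC-seq libraries. Per the study's methods, the authors trimmed reads with Cutadapt and Trim Galore, aligned them to GRCg6a with Bowtie2 allowing several alignments, removed duplicates with Picard, called regions per library with HMMRATAC, merged them with BEDTools, counted with featureCounts without strand and normalized with DESeq2. For versions, any Tn5 shift and the coordinate base, the answer is not given in the sources read. Every value was a whole multiple of 1 read within a tolerance of 1e-06, so reads were recovered (100% of values). Reads from repeats can be assigned to another copy, and intervals cover region scale only.

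The members, lists and rules were chosen with earlier results of these data known. Groups came from the labels. Differences on the scale log2(normalized count + 1) were fitted with limma (version 3.58.1, run under R 4.3.3), with 1 fit of all 8 libraries and a trend, adjusted by Benjamini-Hochberg over 89824 regions at 0.05. Alternatives were edgeR 4.0.16 and DESeq2 1.42.0 on the recovered reads, other pseudocounts, scalings and limits, a minimum mean of 50, a replicate block, and each library left out. With 2 libraries per group, p-values and SE rest on the spread between replicate libraries, pooled over the 4 groups and moderated by the trend. The SE of a region is therefore the same at E4 and E5 and is not the spread of the replicates at 1 stage. The regions named were the 6 with the largest smaller fold, those highest after and lowest before treatment, the 3 largest and smallest stage differences, those at each limit, the longest run and the 12 annotated regions with a named nearest gene and the largest folds. All other regions named were picked after the values were seen. No genome sequence or annotation of GRCg6a was used here, so motifs, sequences and cell type markers were not analysed.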

Additional observations from a re-analysis of the deposited data

How the results depend on the processing

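The direction of the gain held under each alternative in nearly all named regions (1289 comparisons kept direction and side of the threshold, 47 lost the threshold, 15 gained it and 1 reversed). The rule had required a gain at both stages in all these regions, so that the kept direction describes the choice and is no check. The number of opened regions was 694 with a limit of 2 on the log2 ratios and 349 with a developing mean under 25. It was 308 with a treated mean of at least 200 and 586 in replicates 1 alone. When each library was left out it ran from 603 to 1394. Over the same omissions the calls ran from 612 to 1096 at E4, from 1022 to 1107 at E5 and from 612 to 1083 at both, from 0 to 0 in the interaction and from 0 to 11 in the stage comparisons. Regions without overlap ran from 1105 to 1107 and higher neighbours from 94 to 296 at E4 and from 279 to 488 at E5. Among all regions 19.5% to 21.5% were without overlap in these omissions. The share of all regions called higher also changed with the library left out, as given above for some omissions with the neighbours. For calls at both stages, the interaction and the stage comparisons that share is not given here. The counts of calls can therefore not be read alone. Over all regions the median log2 difference ran from -0.05 to -0.003 at E4 and from -0.05 to -0.02 at E5. In the opened regions it ran from 1.93 to 2.64 at E4 and 2.37 to 2.77 at E5. E5 minus E4 ran from -0.10 to 0.63 and reversed (-0.10) without E4 6hPR+FGF2 replicate 1. Stage comparisons gave 1 call each with quantile normalization, edgeR and DESeq2 and 2 with the replicate block. The shares of all regions called under these settings are not given here. The labels do not say whether replicate numbers pair the libraries. Of the 1096 neighbours within 5000 bp, 192 (17.5%) were called higher at E4 and 291 (26.6%) at E5. Of the 1964 within 25000 bp the shares were 14.9% and 24.6%. The E5 median was 2.24 with a pseudocount of 10. For 10:11476240-11476470 at E5 the difference ran from -0.11 to 2.36 with each library left out, the former from E5 6hPR+FGF2 replicate 1 alone. Equal library totals moved the median of all regions at E4 from -0.03 to 0.08. The causes were not tested. Depth limits the developing values, since 183 opened regions had under 10 reads in 1 library.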
